A study of Mus musculus with 8 samples.

Results

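Il10 and 7 other genes of secreted or cell-surface suppression were described in 8 RNA libraries of regulatory T cells (Tregs), a CD4 lineage that depends on Foxp3 and holds immune responses in check. The 8 genes, Il10, Il10ra, Ebi3, Fgl2, Entpd1, Nt5e, Adora2a and Il12rb1, were chosen by symbol from a table of 38406 gene symbols, and all of them were among the 14772 genes with enough counts to test. Tregs were sorted from skeletal muscle and from spleen of male C57BL/6 mice. The mice were 2 months old (young) or more than 6 months old (aged), and all of them had received cardiotoxin 4 days before tissue was taken, at 0.9 µg in each injected leg muscle, where this snake toxin kills the fibres. The spleens therefore also came from injured mice, and no uninjured muscle was included. Each of the 4 groups had 2 libraries of 1500 sorted cells. The design text calls them biological duplicates but does not tell single animals from pools, and p-values measure only how these libraries spread. The sources used here do not give the sort markers or any mouse reporter.

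Tregs can suppress through molecules they release or display as enzymes. The cytokine IL-10 acts through a receptor of an IL-10-specific chain (Il10ra) and a shared chain (Il10rb), which signals mainly through STAT3 and dampens inflammatory cytokine production. EBI3 pairs with the Il12a product to form IL-35 and with the Il27 product to form IL-27. FGL2 is a fibrinogen-like protein whose secreted form binds Fc receptors, among them the inhibitory one encoded by Fcgr2b. The ectoenzymes CD39 (Entpd1) and CD73 (Nt5e) act in sequence, CD39 converting extracellular ATP and ADP to AMP and CD73 converting AMP to adenosine, which T cells sense through the adenosine receptor encoded by Adora2a. Il12rb1 encodes the receptor chain shared by IL-12 and IL-23 and is the one member that receives an inflammatory signal.

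Libraries held 1969982 to 4008622 counts, and each of the 8 genes had at least 34 counts in every library. The 10 listed Treg and T cell markers were read in all 8 libraries, with Foxp3 at 33 to 108 counts, so the labelled cell type had its defining markers. Young muscle replicate 1 stood apart from the rest. Its 19 myeloid markers summed to 1129 CPM (counts scaled to a common library size), against 331 in young muscle replicate 2 and 291 to 783 in the other 6 libraries. With Cd74, H2-Aa and Ctss left out, which T cells can also express (a choice made after the values were seen), the sums were 811 in that library and 52.3 to 174 in the other 7. Its 6 fibroblast markers summed to 393 CPM, against 5.21 to 89.6 elsewhere. It also correlated less with its own replicate (Spearman's rho of 0.893 across genes) than replicate 2 did with aged muscle replicate 1 (0.921), and tissue differences in young mice and age differences in muscle that passed are also given without it below. Aged muscle replicate 2 correlated least with the spleen libraries (0.765 to 0.812). The 4 listed mast cell genes summed to 70.4 and 81.2 CPM in aged muscle and 2.32 to 15.0 in the other 6 libraries. Kit made up most of that sum and was the 1 of the 2 tested genes of that list that edgeR called for age in muscle, while Mcpt4 was at 0 in all 8 libraries. The 6 endothelial markers summed to 316 and 344 CPM in young spleen and 142 to 219 elsewhere, nearly all of it Pecam1 in young spleen, where 4 or 5 of the 6 were at 0. Macrophages are known to express Il10 and Fgl2, and in such bulk libraries fewer cells of a type and less RNA per cell cannot be told apart.

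**Figure D1:**
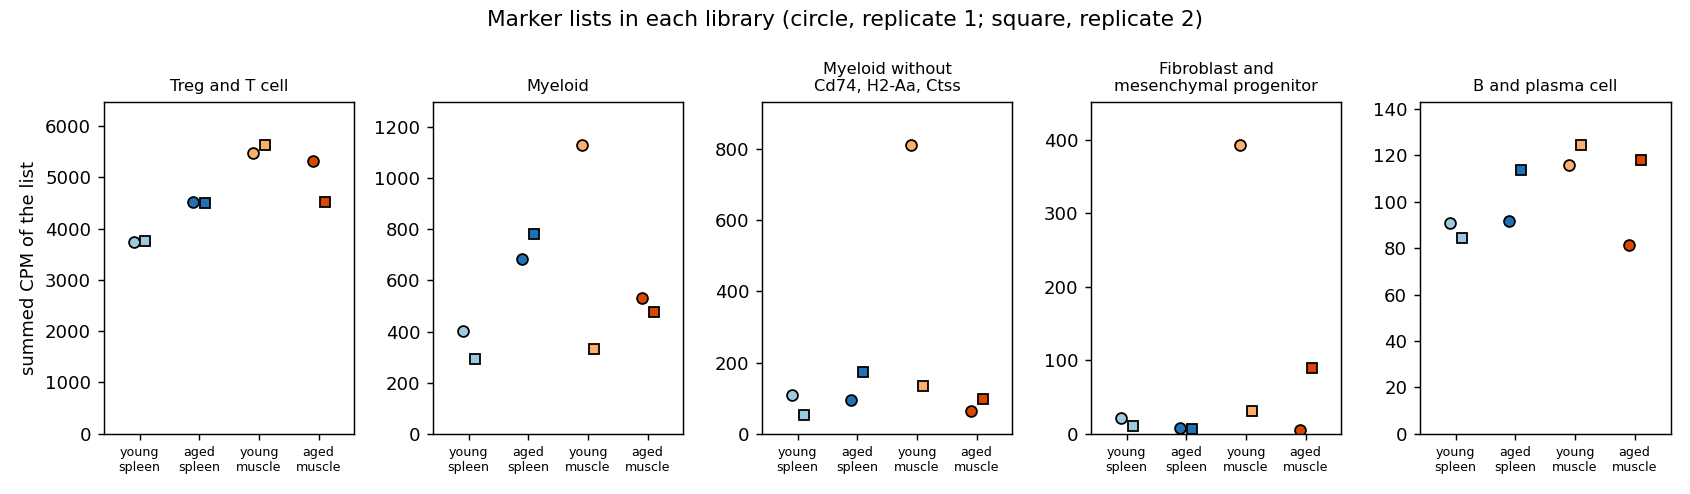
Summed CPM of marker lists (vertical axes, linear from 0) in the 8 libraries by group; each point is 1 library. Young muscle replicate 1 lies at 811 CPM for the myeloid list without Cd74, H2-Aa and Ctss and at 393 CPM for the fibroblast list, above the other 7 libraries, while the Treg and T cell list spans 3736 to 5627 CPM.

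The members differed in where their group means were highest. Il10, Fgl2 and Il10ra were highest in muscle, and Nt5e and Adora2a were highest in spleen. Ebi3 was highest in aged spleen and Il12rb1 in aged muscle, while Entpd1 stayed within a narrow range. Ebi3 and Il12rb1 had their lowest group mean in young spleen, as Il10, Fgl2 and Il10ra also did. Promoter windows of 300 bases (250 before to 50 after the gene start; RefSeq, build GRCm38.p6) were matched for Fgl2, Ebi3, Nt5e and Entpd1. Those of Fgl2 and Ebi3 are shown because these genes moved with age in spleen, Fgl2 also being the member with the largest tissue difference. Both are on the plus strand and run 5′ to 3′, with the Fgl2 window at chr5:21372423-21372722 and the Ebi3 window at chr17:55952373-55952672. Capitals mark matches to AP-1 (TGANTCA), STAT (TTCNNNGAA), NF-kB, Maf (TGCTGAC), IRF, ETS (GGAAGT) or RUNX (TGTGGT), searched on both strands.
Fgl2: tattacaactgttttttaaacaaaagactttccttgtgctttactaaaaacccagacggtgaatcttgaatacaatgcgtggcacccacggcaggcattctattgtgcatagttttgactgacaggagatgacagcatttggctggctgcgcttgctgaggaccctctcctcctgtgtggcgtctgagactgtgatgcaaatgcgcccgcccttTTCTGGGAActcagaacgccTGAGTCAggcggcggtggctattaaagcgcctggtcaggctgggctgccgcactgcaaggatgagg
Ebi3: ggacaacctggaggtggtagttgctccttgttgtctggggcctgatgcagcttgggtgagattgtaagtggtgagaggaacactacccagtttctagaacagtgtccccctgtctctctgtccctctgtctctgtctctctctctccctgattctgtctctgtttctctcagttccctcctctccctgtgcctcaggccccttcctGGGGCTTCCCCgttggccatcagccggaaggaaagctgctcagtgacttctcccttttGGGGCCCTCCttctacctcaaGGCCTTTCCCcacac
The Fgl2 window held 1 AP-1 match, starting at -16 from the RefSeq gene start, and 1 STAT match starting at -36. For Fgl2 and Ebi3 that start differs from the GENCODE start given below, so these positions do not carry over to it. Of 32851 promoter windows, 7.81% held the AP-1 letters and 8.3% the STAT letters. The Ebi3 window held 3 capital stretches, all of NF-kB letters, and the stretch starting at -44 matched on both strands with overlapping matches. Those letters were common, in 50.8% of windows. Such matches describe letters only.

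Il10 (chromosome 1, 131019845 to 131024974, GENCODE M21 on GRCm38) was read at 34.1 and 41.5 CPM in spleen of young mice and 149 and 143 of aged mice, and in muscle at 326 and 266 (young) and 188 and 167 (aged). No groups overlapped: young spleen was lowest, aged spleen and aged muscle lay in between and near each other, and young muscle was highest. Young muscle exceeded young spleen 7.81-fold (log2 fold change 2.96 ± 0.19 SE, edgeR adjusted p = 8.5e-08), and without young muscle replicate 1 the log2 difference was 2.79. Between aged muscle and aged spleen the difference was 0.28 ± 0.17 and did not pass (adjusted p = 0.26), with a 95% interval of -0.08 to 0.65. Il10 thus differed between the tissues in young mice, and in aged mice the test found no difference, with an interval that leaves out a 2-fold one.

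With age Il10 moved in opposite directions in the 2 tissues. In spleen it rose 3.85-fold (log2 fold change 1.94 ± 0.19, edgeR adjusted p = 3.3e-05), a call that held under all 15 alternatives run (1.82 to 2.11). In muscle it fell by 0.74 ± 0.17 on the log2 scale (adjusted p = 0.04). That call ended without young muscle replicate 1 (-0.59, adjusted p = 0.30), without aged muscle replicate 2 (-0.66, adjusted p = 0.20), without any 1 spleen library (-0.75) and in a fit of the 2 muscle groups alone (-0.73, adjusted p = 0.27). The myeloid and fibroblast sums were highest in young muscle replicate 1 and Kit in aged muscle, and the part of either in this fall was not tested. The difference of the age effects, muscle minus spleen, was -2.68 ± 0.26 (adjusted p = 3.2e-05) and passed under all 14 alternatives, at -2.54 without young muscle replicate 1.

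Fgl2 (chromosome 5, 21372642 to 21378374) was read at 15.9 and 22.9 CPM in spleen of young mice and 54.2 and 52.2 of aged mice, and in muscle at 232 and 208 (young) and 211 and 164 (aged). All 4 muscle libraries lay above all 4 spleen libraries, and the muscle groups overlapped each other. Fgl2 was 11.2-fold higher in young muscle than in young spleen (log2 fold change 3.49 ± 0.23, edgeR adjusted p = 9.1e-08), the largest tissue difference among the 8 genes. In aged mice it was 3.52-fold higher in muscle (1.82 ± 0.20, adjusted p = 2.5e-05). Leaving out young muscle replicate 1 gave 3.39 and 1.78. The gene rose with age in spleen by 1.44 ± 0.23 (adjusted p = 0.0019), from 19.4 ± 4.9 to 53.2 ± 1.4 CPM (SD, n = 2). In muscle its age difference of -0.23 ± 0.19 did not pass (adjusted p = 0.61). The age effects differed by -1.67 ± 0.30 (adjusted p = 0.006). Without young spleen replicate 1, the library with the lowest Fgl2, the rise in spleen was 1.22 (adjusted p = 0.069) and the difference of age effects -1.47 (adjusted p = 0.071), and both calls ended.

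The receptors that FGL2 is known to bind were close to absent. Fcgr2b, the inhibitory Fc receptor gene, had 0 to 5 counts in each library, and Fcgr3 had 0 to 9 counts except for 23 in young muscle replicate 1, the library with the high myeloid sum. Neither had enough counts to test. Fgl2 was therefore read in these Tregs with little signal of its listed receptors in the same libraries.

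Il10ra (chromosome 9, 45253837 to 45269149) encodes the IL-10-binding receptor chain. It was read at 75.7 and 81.0 CPM in spleen of young mice and 102 and 89.9 of aged mice, and in muscle at 163 and 155 (young) and 165 and 116 (aged). Every muscle library was above every spleen library. The gene was 2.03-fold higher in young muscle than in young spleen (log2 fold change 1.02 ± 0.20, edgeR adjusted p = 0.0021), and by 0.97 on the log2 scale without young muscle replicate 1. In aged mice the difference was 0.55 ± 0.19 and missed the threshold (adjusted p = 0.058). That value was past it with DESeq2 (0.60, adjusted p = 0.049), with library-size scaling (0.61, adjusted p = 0.025), with RLE size factors (0.60, adjusted p = 0.036), with the filter of 10 counts (0.57, adjusted p = 0.043) and without aged muscle replicate 2 (0.78, adjusted p = 0.019). Age differences of 0.29 in spleen and -0.18 in muscle did not pass. The shared chain Il10rb was at 38.0 to 65.5 CPM in all libraries and passed in no comparison, with log2 differences between tissues of -0.59 ± 0.24 in young mice and -0.23 ± 0.24 in aged mice.

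**Figure D2:**
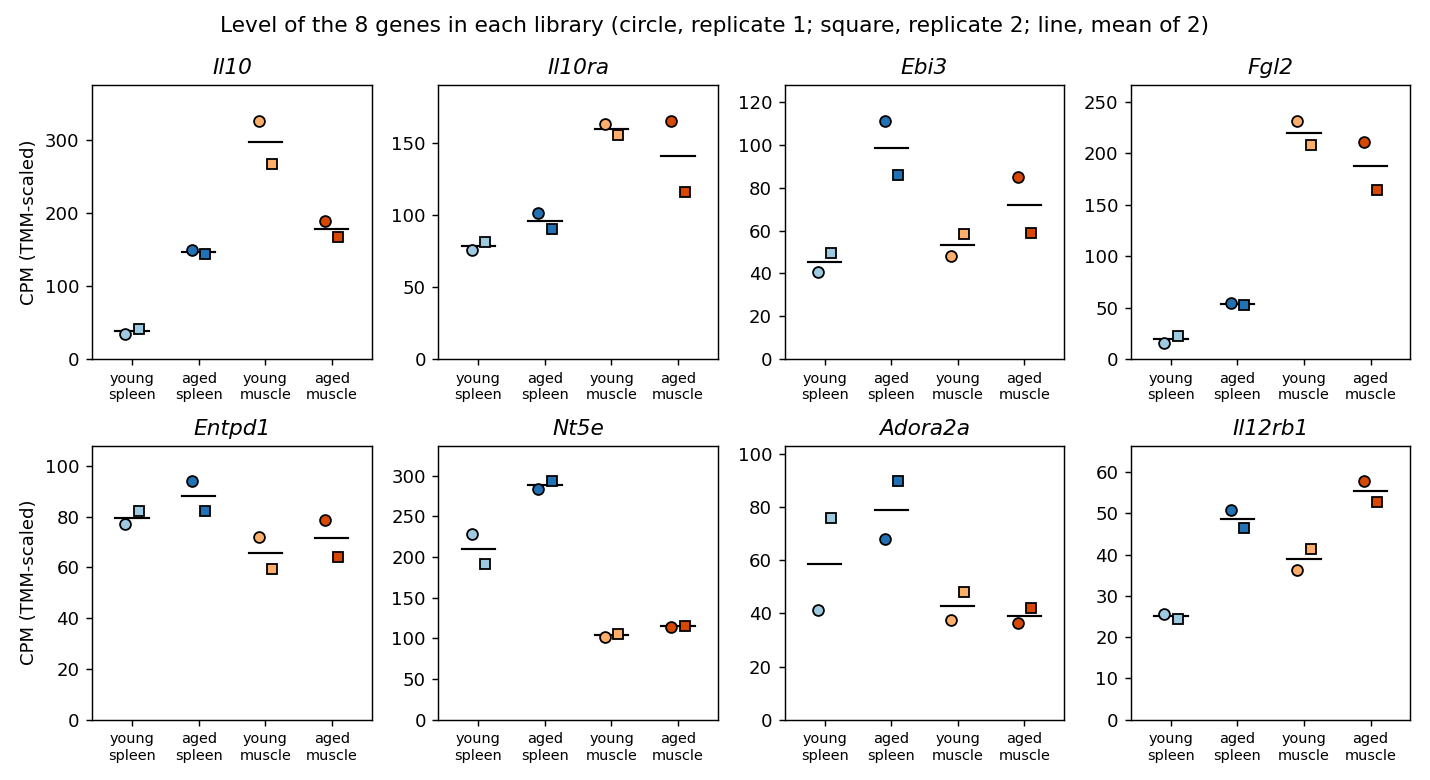
CPM scaled by TMM (vertical axes, linear from 0) of the 8 genes in each library; circles are replicate 1, squares replicate 2 and lines the mean of 2. Il10 spans 34.1 to 326 CPM and Fgl2 15.9 to 232 CPM, with muscle above spleen, whereas Nt5e lies at 101 to 115 CPM in muscle and 191 to 293 CPM in spleen.

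Of 7 listed genes of IL-10 signalling beside Il10 and Il10ra, 4 were higher and 1 lower in young muscle than in young spleen, against 11.4% and 10.9% of all genes tested. In aged mice 3 were higher in muscle, against 9.57% of all genes. Bcl3, an IL-10-inducible regulator of NF-kB, was 1.78 ± 0.16 higher on the log2 scale in young muscle (edgeR adjusted p = 1.3e-06) and 1.03 ± 0.15 higher in aged muscle (adjusted p = 0.00031). Nfil3, a transcription factor, was higher by 2.04 ± 0.25 in young and 0.86 ± 0.24 in aged mice, and Stat3 by 0.58 ± 0.15 and 0.54 ± 0.15. Nfil3 and Stat3 are counted again among the transcription factors below, and Stat3 also among the IL-12 family genes. Without young muscle replicate 1 the young values were 1.72 for Bcl3, 1.75 for Nfil3 and 0.61 for Stat3, and all of them passed. Calls ended without either young spleen library or young muscle replicate 2 for Stat3 in young mice (0.50 to 0.64), and without any 1 spleen library or aged muscle replicate 1 in aged mice (0.40 to 0.56). Nfil3 in aged mice lost its call without either aged spleen library or aged muscle replicate 1 (0.70 to 0.85). With age, 0 of the 7 passed in either tissue with edgeR, while DESeq2 called 1 lower in each. An unadjusted p under 0.05 was found for 3 of the 7 in muscle and 1 in spleen. Over all genes edgeR called 1.14% higher and 0.88% lower with age in muscle, and 2.08% and 2.17% in spleen. At such shares a count of 0 among 7 says little.

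Among 15 listed transcription factors of effector and IL-10-producing T cells, several of them known to act on Il10, 9 were higher in young muscle than in young spleen, against 11.4% of all genes, and the other 6 did not pass. In aged mice 6 were higher in muscle, against 9.57% of all genes, and 2, Maf and Batf, were lower, against 9.27%. Irf4, which drives effector Treg differentiation, was at 72.9 and 60.1 CPM in spleen of young mice and 73.3 and 86.9 of aged mice, and in muscle at 445 and 389 (young) and 284 and 276 (aged). Its tissue difference was 2.65 ± 0.18 in young mice and 1.81 ± 0.17 in aged mice (edgeR adjusted p = 1.1e-07 and 6.4e-06). Rora and Junb were also higher in muscle, by 2.17 ± 0.18 and 1.33 ± 0.14 in young and 1.46 ± 0.17 and 1.24 ± 0.14 in aged mice. Without young muscle replicate 1 the young values were 2.54 for Irf4, 2.23 for Rora and 1.31 for Junb, and all of them passed. Of the 15, 6 rose with age in spleen, against 2.08% of all genes, including Bhlhe40 by 1.94 ± 0.25, Batf by 1.04 ± 0.18 and Prdm1, which encodes Blimp-1, by 1.31 ± 0.25. The call of Batf ended without either young spleen library or aged spleen replicate 2 (0.99 to 1.11), and that of Prdm1 without either young spleen library or aged spleen replicate 1 (1.14 to 1.39).

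Maf, a direct activator of Il10, and Batf shared the direction of Il10 in the difference of age effects. The 15 factors had a median log2 value of -0.71 there, against -0.04 over all genes, so that direction was not particular to Maf and Batf. An unadjusted p under 0.05 was found for 7 of the 15. Maf was at 244 and 290 CPM in spleen of young mice and 450 and 458 of aged mice, and in muscle at 367 and 435 (young) and 317 and 262 (aged), so that aged spleen was its highest group. Its difference of age effects was -1.23 ± 0.23 (edgeR adjusted p = 0.0079) and that of Batf -1.30 ± 0.25 (adjusted p = 0.0095). EdgeR called these 2 of the 15 there, against 1.17% of all genes lower, and DESeq2 called 3 lower. Both edgeR calls ended on leaving out young spleen replicate 1 or 1 of the aged spleen libraries (-1.13 to -1.26 for Maf and -1.27 to -1.33 for Batf), that of Batf also without young spleen replicate 2 (-1.38). Bhlhe40, known to repress Il10, rose with age in spleen as Il10 did but went another way from Il10 in muscle. It rose with age there by 2.35 ± 0.27 (adjusted p = 0.00022), from 18.5 and 21.5 to 110 and 93.5 CPM, and by 2.24 without young muscle replicate 1. It was the 1 factor of the 15 that edgeR called for age in muscle, against 1.14% of all genes higher and 0.88% lower. DESeq2 called 1 higher and 1 lower there, and 6 of the 15 had an unadjusted p under 0.05. Whether Maf, Batf or Bhlhe40 acted on Il10 in these cells was not tested.

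**Figure D3:**
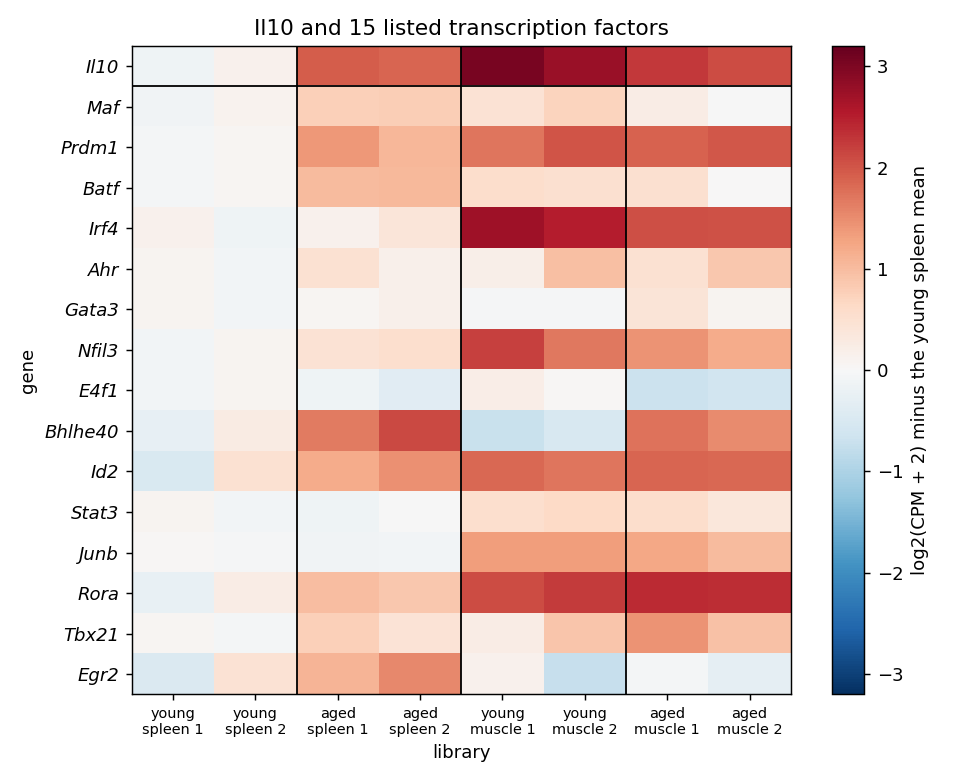
Heat map of log2(CPM + 2) minus the young spleen mean (colour, log2 units) for Il10 and 15 listed transcription factors (rows) in 8 libraries (columns). Il10 is highest in young muscle, as Irf4 is, Maf and Batf are highest in aged spleen, and Bhlhe40 is low in young spleen and young muscle and high in both aged groups.

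Ebi3 (chromosome 17, 55952640 to 55957022) was read at 40.7 and 49.6 CPM in spleen of young mice and 111 and 85.8 of aged mice, and in muscle at 48.3 and 58.4 (young) and 84.9 and 58.8 (aged). It was higher in aged spleen than in young spleen with no overlap, and the young groups overlapped. The rise with age in spleen was 2.18-fold (log2 fold change 1.13 ± 0.25, edgeR adjusted p = 0.016). The call ended without any 1 spleen library, with values of 0.93 to 1.32. In muscle the age difference was 0.43 ± 0.25 and did not pass (adjusted p = 0.42). Neither tissue difference passed, at 0.24 ± 0.25 in young and -0.46 ± 0.24 in aged mice.

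Partner chains of EBI3 were read at or near 0. Il12a, the other chain of IL-35, had 2 counts in young spleen replicate 1, 2 in aged spleen replicate 1 and 0 in the other 6 libraries. A count of 0 over the 2 libraries of a muscle group allows up to 3 counts, or 0.67 CPM in young and 0.59 CPM in aged muscle, a limit for counting error only. Il27, the other chain of IL-27, had 0 to 11 counts a library, and Il12a, Il27 and Il23a were too low to test. Ebi3 RNA was thus read without detectable partner RNA in muscle for IL-35.

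Il12rb1 (chromosome 8, 70808449 to 70821424) was read at 25.7 and 24.4 CPM in spleen of young mice and 50.8 and 46.5 of aged mice, and in muscle at 36.2 and 41.5 (young) and 57.7 and 52.9 (aged). The order was young spleen, young muscle, aged spleen, aged muscle, with no overlap between neighbours, though only the age difference in spleen passed. It rose there 1.94-fold (log2 fold change 0.96 ± 0.25, edgeR adjusted p = 0.047), a call that ended with DESeq2 (adjusted p = 0.078), without any 1 spleen library (0.90 to 1.04) and without aged muscle replicate 1 (0.94). In muscle the age difference was 0.51 ± 0.25 (adjusted p = 0.35). Its IL-12-specific partner Il12rb2 was at 4 to 26 counts a library and passed in no comparison. Of the 10 other tested genes of the IL-12 family, its receptors and STATs, edgeR called 3 higher and 2 lower in young muscle than in young spleen, against 11.4% and 10.9% of all genes. In aged mice 1 was higher and 2 were lower, near the 9.57% and 9.27% of all genes, and DESeq2 called 1 higher and 1 lower. The IL-27 receptor gene Il27ra was at 190 and 193 CPM in young spleen and 124 and 108 in young muscle, a log2 difference of -0.71 ± 0.18 (adjusted p = 0.01; -0.83 without young muscle replicate 1) that ended without either young spleen library or young muscle replicate 2 (-0.62 to -0.74). Il6st, the signalling chain gp130, was lower in aged muscle than in aged spleen by 0.80 ± 0.23 (adjusted p = 0.025), but not by DESeq2 (adjusted p = 0.055), nor without either aged spleen library or aged muscle replicate 2 (-0.67 to -0.99).

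Nt5e (chromosome 9, 88327197 to 88372092) ran opposite to Il10 and Fgl2 between tissues. It was read at 229 and 191 CPM in spleen of young mice and 284 and 293 of aged mice, and in muscle at 101 and 106 (young) and 114 and 115 (aged). All 4 spleen libraries were above all 4 muscle libraries. Nt5e was lower in muscle by 1.02 ± 0.16 on the log2 scale in young mice (edgeR adjusted p = 0.00048) and by 1.33 ± 0.16 in aged mice (adjusted p = 6.2e-05), and both calls held under all 15 alternatives (-1.15 to -0.90 in young mice). The age difference in spleen, 0.46 ± 0.16, did not pass (adjusted p = 0.13). It did with library-size scaling (0.63, adjusted p = 0.02), under which the median of all genes was 0.21, and with only the 2 spleen groups (0.47, adjusted p = 0.01).

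Entpd1 (chromosome 19, 40612366 to 40741602) was read at 77.1 and 82.1 CPM in spleen of young mice and 93.9 and 82.1 of aged mice, and in muscle at 72.0 and 59.4 (young) and 78.6 and 64.3 (aged). The libraries spanned less than a 2-fold range, and the age groups overlapped in each tissue. At each age both spleen libraries lay above both muscle libraries. No comparison of Entpd1 passed. Its tissue differences were -0.27 ± 0.21 in young mice (95% interval -0.72 to 0.17) and -0.30 ± 0.20 in aged mice (-0.74 to 0.14), and its age differences were 0.12 ± 0.21 in muscle and 0.15 ± 0.20 in spleen. The intervals leave out a 2-fold change in these 4 comparisons. Of the 2 enzymes that act in sequence, the second was thus lower in muscle, while the first had values in the same direction that did not pass.

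Adora2a (chromosome 10, 75316877 to 75334784) was read at 41.1 and 75.9 CPM in spleen of young mice and 67.9 and 89.6 of aged mice, and in muscle at 37.4 and 48.0 (young) and 36.5 and 41.9 (aged). Young spleen replicate 1 lay among the muscle libraries, and the 2 young spleen libraries differed more from each other than those of any other group. In aged mice the gene was 2.01-fold lower in muscle (95% interval of the log2 fold change -1.62 to -0.39, edgeR adjusted p = 0.026), a call that ended without any 1 of the 4 aged libraries (-0.84 to -1.22). In young mice the difference was -0.47 ± 0.29 and did not pass (adjusted p = 0.27), and it was 0.043 without young spleen replicate 2.

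Of 23 other tested genes of extracellular ATP and adenosine handling, 3 were higher and 3 lower in young muscle than in young spleen, near the 11.4% and 10.9% of all genes. In aged mice 4 were higher and 3 lower, against 9.57% and 9.27%. P2rx7, the ATP-gated channel, was at 248 and 234 CPM in spleen of young mice and 343 and 299 of aged mice, and in muscle at 11.7 and 40.5 (young) and 32.4 and 35.1 (aged). It was 9.48-fold lower in young muscle (log2 fold change -3.24 ± 0.41, edgeR adjusted p = 0.00069) and 9.51-fold lower in aged muscle (-3.25 ± 0.39, adjusted p = 0.00079), and every muscle library was below every spleen library. The size in young mice depended on which muscle library was kept, with -2.59 on leaving out young muscle replicate 1 and -4.36 on leaving out its replicate 2, and both passed. Dpp4, the peptidase CD26 that binds adenosine deaminase, was lower in young muscle by 2.24 ± 0.28 (adjusted p = 5.0e-05), and the cAMP phosphodiesterase gene Pde4d was higher in muscle by 1.25 ± 0.20 in young and 1.44 ± 0.20 in aged mice. Without young muscle replicate 1 the young values were -2.11 for Dpp4 and 1.39 for Pde4d. Ada itself had 2 to 19 counts a library and passed in no comparison. With age, Adk, the adenosine kinase gene, fell in spleen by 0.93 ± 0.19 (adjusted p = 0.011), a call that ended without either young spleen library or aged spleen replicate 2 (-0.74 to -1.03). For age in muscle 0 of the 23 passed with edgeR or with DESeq2, and 3 had an unadjusted p under 0.05. Over all genes edgeR called 1.14% higher and 0.88% lower there, so a count of 0 says little about this list.

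**Figure D4:**
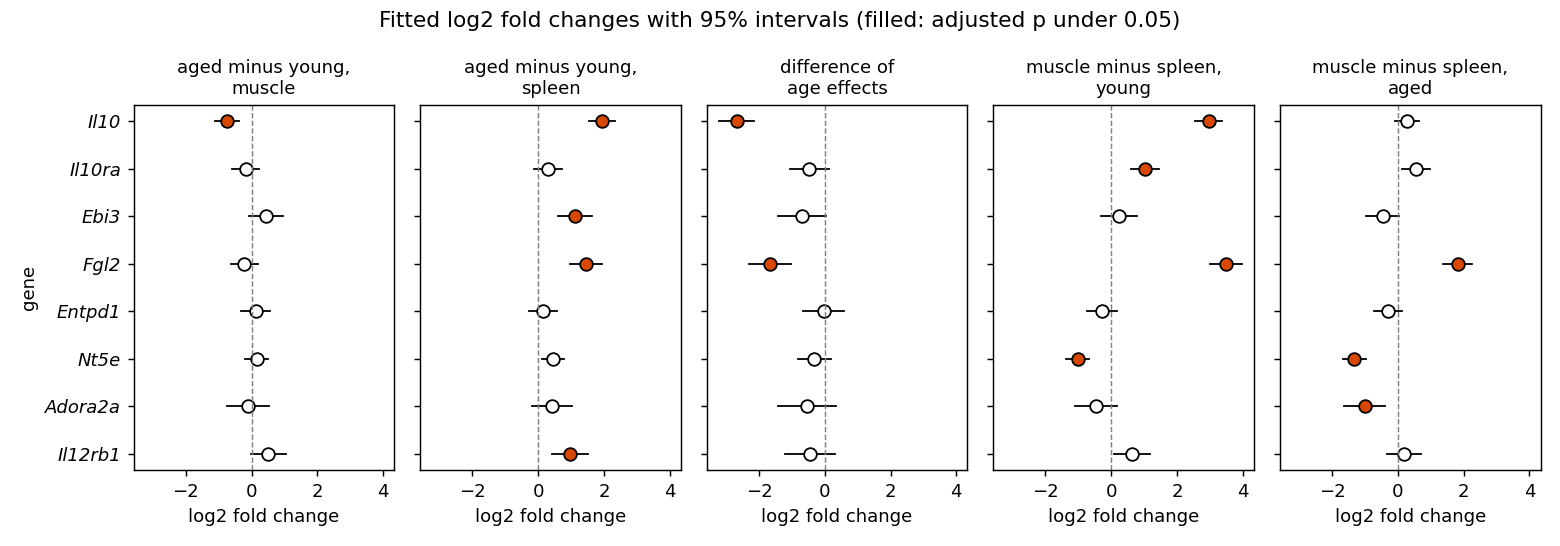
Fitted log2 fold changes (horizontal axes, 1 scale for all panels) of the 8 genes in 5 comparisons, with 95% intervals; filled points have an edgeR adjusted p under 0.05. Il10 lies at -0.74 for age in muscle and 1.94 for age in spleen, and Il10 and Fgl2 are the filled points for the difference of age effects, at -2.68 and -1.67.

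Counted together, 4 of the 8 genes rose with age in spleen (Il10, Fgl2, Ebi3 and Il12rb1), against 2.08% of all 14772 genes tested, and 0 fell, against 2.17%. DESeq2 called 3 higher and 0 lower, 5 had an unadjusted p under 0.05, all of them higher, and the count was 1 without young spleen replicate 1 and 2 without any other spleen library. All 8 had a positive value, with a median log2 fold change of 0.71 against 0.05 over all genes. With age in muscle 1 gene fell (Il10), against 0.88% of all genes, and 0 rose, against 1.14%, by edgeR and by DESeq2. Il10 was also the only one of the 8 with an unadjusted p under 0.05 there, 4 values were positive and 4 negative, and the median was 0.00. For the difference of age effects 2 genes were lower (Il10 and Fgl2), against 1.17% of all genes, and 0 were higher, against 1.35%, by both tools and at an unadjusted p under 0.05. All 8 values were negative with a median of -0.50, against -0.04 over all genes, and 1 gene passed without young spleen replicate 1.

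Between tissues in young mice 3 genes were higher in muscle (Il10, Fgl2 and Il10ra), against 11.4% of all genes, and 1 was lower (Nt5e), against 10.9%. In aged mice 1 was higher (Fgl2), against 9.57%, and 2 were lower (Nt5e and Adora2a), against 9.27%. DESeq2 called 2 higher and 2 lower there, the added gene being Il10ra. The median over the 8 genes was 0.43 in young and -0.06 in aged mice, against 0.07 and 0.03 over all genes. These genes were picked with earlier results of these data known, so the counts describe them and do not set them apart from other genes. The comparisons share libraries: the young spleen libraries enter both the age comparison in spleen and the tissue comparison in young mice.

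**Figure D5:**
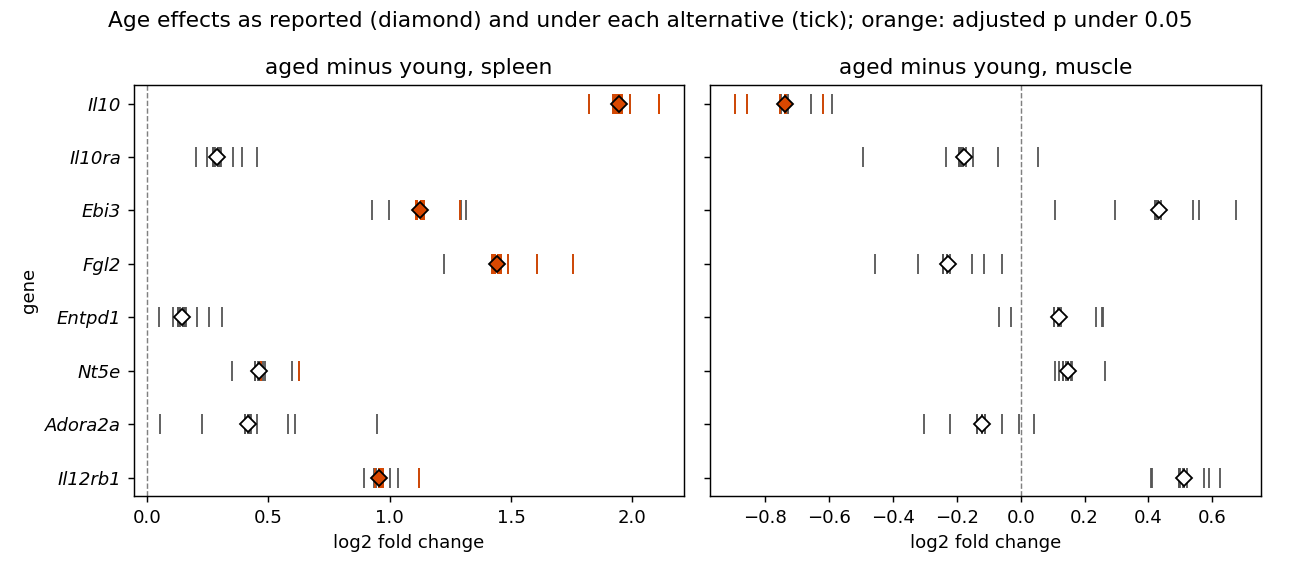
Age differences (horizontal axes, log2 fold change) of the 8 genes in spleen and muscle as reported (diamonds) and under 15 alternatives (ticks); orange marks an adjusted p under 0.05. Il10 stays between 1.82 and 2.11 in spleen and passes in every alternative there, while in muscle it ranges from -0.89 to -0.59 and loses its call in 7 of them.

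To set different genes side by side, levels were divided by length. As CPM per kilobase of annotated exon, Il10 was the highest of the 8 in aged spleen (111 ± 3.0), young muscle (226 ± 32) and aged muscle (136 ± 11), and in young spleen Ebi3 was highest (39.1 ± 5.5; SD, n = 2) with Il10 next at 28.8 ± 4.0. Fgl2 was the lowest of the 8 in young spleen at 5.11 ± 1.3 and stood next after Il10 in young muscle at 58.0 ± 4.5. Before division by length, Il10 was highest of the 8 in young muscle only. Nt5e was then highest in both spleen groups (288 against 146 CPM for Il10 in aged spleen) and Fgl2 in aged muscle (188 against 178 CPM for Il10). The levels per kilobase depend on the annotated exon length and on how evenly the amplified RNA covered each gene, which was not measured.

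Across the 8 libraries the members' profiles were compared with those of 7800 genes of at least 4 on the mean log2 CPM scale, as a description of libraries that share depth and group structure. The profile most like that of Il10 was Itgae, the CD103 integrin chain, at Pearson's r = 0.99 of log2 CPM over 8 libraries, followed by Ralgds and Myo1f (both r = 0.98). For Fgl2 the nearest were Adam8, Plk3 and Lyn (each r = 0.99), for Il10ra Map6 (0.99), for Ebi3 Irf1 (0.95), for Nt5e Mogs (0.99), for Entpd1 Coq5 (0.98), for Adora2a Nprl3 (0.96) and for Il12rb1 Deptor (0.99). Itgae was read at 65.4 and 62.4 CPM in spleen of young mice and 264 and 262 of aged mice, and in muscle at 553 and 538 (young) and 305 and 240 (aged). It had the group order of Il10 except that aged muscle replicate 2 lay below aged spleen. Among the members, r was 0.93 between Il10 and Fgl2, 0.95 between Fgl2 and Il10ra, 0.77 between Ebi3 and Il12rb1, 0.76 between Nt5e and Adora2a and -0.80 between Fgl2 and Nt5e.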

How the data were processed

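The deposited table holds raw read counts per gene symbol for 8 libraries, with no row lacking a gene. Per the submitters' processing notes, the tools were TopHat2, TopHat, Picard, SAMtools 0.1.19 and HTSeq with the mm10 build. The sources used here give neither their settings nor the annotation or strand used, so reads of overlapping or antisense genes cannot be told apart. RNA from 1500 cells was amplified by in vitro transcription and PCR per the labels' protocols, and no molecular identifiers are named, so counting limits cover counting error only.

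Counts were tested as deposited with edgeR 4.0.16 in R 4.3.3: filterByExpr (14772 genes kept), TMM scaling, 1 coefficient for each of 4 groups fitted to all 8 libraries, the two-sided quasi-likelihood F-test and Benjamini-Hochberg adjustment over all genes tested, with a threshold of 0.05. The 5 comparisons were age in each tissue, their difference, and tissue at each age. SEs were taken as the absolute log2 fold change over sqrt(F), and intervals are 95%. The 4 residual degrees of freedom and a biological coefficient of variation of 0.288 limit the precision. CPM are counts scaled by TMM library size, and correlations used log2 CPM with a prior count of 2. The fit was also run on counts simulated from its own estimates of spread, with independent libraries. Such counts hold no outlying library, so that run says nothing about calls that rest on 1 library.

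Alternatives were DESeq2 1.42.0, library-size and RLE scaling, no filter, a filter of 10 counts, only the groups compared, a replicate block, and each library left out. The text names the 8 members, 8 fixed partner genes and at most 3 called genes of each list and comparison by smallest p, with the 3 most alike profiles of each member open to naming. Other genes, such as Fcgr3, Il27, the marker genes and, for aged tissue, Maf and Batf, were named after their values were seen. The members and lists were chosen with earlier results of these data known. The result of 1 gene that this rule names is not reported here.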

Additional observations from a re-analysis of the deposited data

Results flagged for a closer look

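The age effect on Il10 differed between the tissues by a test of the difference itself, at -2.68 ± 0.26 SE on the log2 scale, muscle minus spleen (edgeR adjusted p = 3.2e-05). Both libraries of aged spleen were above both of young spleen, and both of aged muscle below both of young muscle.

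The age effect on Fgl2 also differed, at -1.67 ± 0.30 (edgeR adjusted p = 0.006). That call ended without young spleen replicate 1, where the value was -1.47. Fgl2 was higher in both aged spleen libraries, and its muscle groups overlapped.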

How the results depend on the processing

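With 2 libraries a group, calls of moderate size often rested on 1 library. Counts of genes called moved by over 1.5 times as follows. For age in muscle, 298 genes became 497 with DESeq2, 748 with no filter, 49 with only the groups compared and 154 to 1067 with 1 library left out, and the members called went from 1 to 0 with only the groups compared and 0 to 1 with 1 library left out. For age in spleen, 627 genes became 1039 with no filter, 1840 with only the groups compared and 155 to 1047 with 1 library left out, and the 4 members called became 1 to 4. For the difference of age effects, 372 genes became 670 with no filter and 159 to 689 with 1 library left out, and the 2 members called became 1 to 2. Between tissues, 3290 genes in young and 2783 in aged mice became 1483 to 3528 and 974 to 3944 with 1 library left out.

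Library-size scaling moved the median of all genes to 0.15 for age in muscle, 0.21 for age in spleen and 0.18 for young tissue. It split the calls for age in spleen into 489 higher and 236 lower (307 and 320 with TMM). Some values short of the threshold changed sign with 1 library left out. For age in muscle, Il10ra ran from -0.49 to 0.053 (without aged muscle replicate 2), Entpd1 from -0.069 (without aged muscle replicate 1; -0.03 without young muscle replicate 2) to 0.26, and Adora2a from -0.30 to 0.043 (without young muscle replicate 2). The difference of age effects of Entpd1 ran from -0.20 to 0.11 (without aged muscle replicate 2), and was 0.06 without aged spleen replicate 1 and 0.10 without young muscle replicate 1. Adora2a in young tissue ran from -0.85 to 0.043 (without young spleen replicate 2). The cause was not tested.

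No label says that replicate numbers mark a shared animal or day, and deviations of same-numbered libraries correlated at -0.07 to 0.26. With the replicate block, 479, 893, 472, 3626 and 3178 genes were called for age in muscle, age in spleen, their difference, young tissue and aged tissue, and 1, 4, 2, 4 and 4 members. The added member was Il10ra in aged tissue (0.55, adjusted p = 0.047).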
